A study of Mus musculus with 2 samples.

Results

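The cells described here carried transcripts of Foxj1, the forkhead transcription factor that switches on the genes of motile cilia, or of Ccdc153, Tmem212 and Rsph1, which mark ciliated cells, in any combination. A cell was taken when its summed count of these 4 genes reached at least 3 unique molecular identifiers (UMIs, each a tag counted once for a captured transcript). It could hold at most 1 UMI of the projection neuron genes Neurod2 and Neurod6, fewer than 5 of the endothelial genes Cldn5, Flt1 and Pecam1, and fewer than 5 of the microglial genes C1qa, C1qb and C1qc. Of the 12846 cells kept after filtering, 82 met this rule, 59 of 6766 in one library and 23 of 6080 in the other. The levels of the 4 rule genes chose the cells and are given below as description only.

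The study compared newborn mice, at postnatal day 0, that were wild type (WT) or carried STINGf/f;Nestin-Cre (cKO), both on a C57BL/6 background. STING is the adaptor protein of cytosolic DNA sensing, and Nestin-Cre drives recombination in the neural lineage, which includes the radial glia from which ependymal cells arise. The tissue was labelled brain and telencephalic tissue, and dissociated cells were captured in droplets by 10x Genomics chemistry. The study's methods instead name the cerebral cortex as the part taken, so which ventricular walls the cells came from is not settled by these sources. Each genotype was 1 library, so nothing here tests genotype, and intervals are exact 95% intervals that cover counting error only. The labels describe the control as WT, whereas the study's text also calls its controls STINGfl/fl.

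The libraries held 69554624 UMIs in 10715 barcodes (WT) and 67448785 UMIs in 9198 barcodes (cKO). Of the barcode sequences, 19 occurred in both libraries, and none of these was a Foxj1 cell. Xist, transcribed from the inactive X of females, had a UMI in 1 of 59 WT and in 23 of 23 cKO Foxj1 cells, while Y-linked genes had one in 49 of 59 and in 0 of 23. Genotype and sex therefore cannot be told apart in any comparison below.

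Ependymal cells line the brain ventricles and move cerebrospinal fluid with tufts of motile cilia. They descend from radial glia, and their commitment passes through the Geminin-family regulators Gmnc and Mcidas, then through amplification of centrioles around deuterosomes, which need Deup1 and which cyclin O (Ccno) promotes. Foxj1 and the RFX factors then switch on the parts of the axoneme, the microtubule shaft of the cilium with its dynein arms, radial spokes, central apparatus and docking proteins. RFX factors bind the X-box, an inverted repeat found near the start of many ciliary genes.

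The X-box was found in a larger share of axoneme promoters than of all promoters. It was searched on both strands as GTNNCCNGNAAC, GTNNCCNNGNAAC, GTNNCCNNNGNAAC or GTNNCCNNNNGNAAC, in windows from 250 bases before to 50 bases after each RefSeq start. Of 92 axoneme genes outside the rule, 75 had an entry, with 85 promoters, and 35 of these promoters (41.2%) held an X-box, against 1726 of 32851 promoters of all genes (5.25%). Among the genes of intraflagellar transport, the cargo traffic within cilia, 4 of 20 promoters (20%) held one, and among the 16 promoters of glial and ependymal maturation genes 1 did (6.25%). The forkhead motif TGTTTAC, searched on both strands, was present in 4 of the 85 axoneme promoters (4.71%) and in 3.65% of all promoters. A match is a run of letters and not a measured binding site. The 250 bases before the start are printed for 5 genes that recur below, 4 chosen because they hold an X-box and Dnah6 because it holds no match to the letters searched, from RefSeq on GRCm38.p6, 5′ to 3′ on the strand of the gene, with the X-box in capitals.
Dynlrb2 (chr8:116504765-116505014, plus strand): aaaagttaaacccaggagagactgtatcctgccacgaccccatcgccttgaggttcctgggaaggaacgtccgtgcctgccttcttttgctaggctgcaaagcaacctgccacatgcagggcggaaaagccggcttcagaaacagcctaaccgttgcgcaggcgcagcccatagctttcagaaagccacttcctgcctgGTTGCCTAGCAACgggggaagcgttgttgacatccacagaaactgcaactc
Fam183b (chr11:58801961-58802210, minus strand): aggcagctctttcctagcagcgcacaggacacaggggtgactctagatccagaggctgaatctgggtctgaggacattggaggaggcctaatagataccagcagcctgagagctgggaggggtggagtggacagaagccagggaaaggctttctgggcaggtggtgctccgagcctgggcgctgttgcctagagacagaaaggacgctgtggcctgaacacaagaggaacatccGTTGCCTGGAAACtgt
Ccdc153 (chr9:44240427-44240676, plus strand): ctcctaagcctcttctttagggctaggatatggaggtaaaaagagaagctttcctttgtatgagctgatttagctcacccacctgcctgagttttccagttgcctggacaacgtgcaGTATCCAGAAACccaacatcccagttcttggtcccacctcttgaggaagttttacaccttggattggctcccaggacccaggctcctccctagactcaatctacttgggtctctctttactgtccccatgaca
Ccno (chr13:112987552-112987801, plus strand): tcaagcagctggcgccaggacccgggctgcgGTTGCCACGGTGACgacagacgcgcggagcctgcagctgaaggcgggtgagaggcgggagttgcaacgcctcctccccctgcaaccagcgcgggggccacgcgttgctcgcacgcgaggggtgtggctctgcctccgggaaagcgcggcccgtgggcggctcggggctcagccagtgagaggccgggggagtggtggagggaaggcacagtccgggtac
Dnah6 (chr6:73221632-73221881, minus strand): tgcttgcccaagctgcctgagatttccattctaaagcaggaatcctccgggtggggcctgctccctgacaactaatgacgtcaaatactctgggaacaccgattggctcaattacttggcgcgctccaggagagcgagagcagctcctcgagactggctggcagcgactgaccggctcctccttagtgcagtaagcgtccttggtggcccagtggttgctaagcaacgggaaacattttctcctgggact
The X-box began 51 bases before the start in Dynlrb2, 16 in Fam183b, 133 in Ccdc153 and 219 in Ccno. The stretch of Dnah6 held no match to the letters searched for either motif. Part of it, however, differs at only 1 letter from an X-box form that was searched, so Dnah6 is not shown to lack an X-box. Matches were also absent from the 250 bases before the starts of Tmem212, Mcidas, Dnah12, Tekt1 and Meig1, which were looked at as well. Stretches that differ at 1 letter were not counted, such as gttgccatagagac in Tekt1 and gttgcctggacaac in Ccdc153. A missing match therefore does not show that the element is absent. In the GENCODE annotation of GRCm38, Foxj1 lies on chromosome 11 (116330704 to 116335399, minus strand), Ccdc153 on chromosome 9 (44240676 to 44247306, plus), Tmem212 on chromosome 3 (27866066 to 27896368, minus), Rsph1 on chromosome 17 (31255019 to 31277383, minus) and Dnah6 on chromosome 6 (73017606 to 73221651, minus).

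The rule genes separated a small group of cells from the rest, and the high end of the range held more WT than cKO cells. Foxj1 cells were 0.872% (0.664 to 1.12) of kept WT cells and 0.378% (0.240 to 0.567) of kept cKO cells, a difference of -0.494 percentage points (-0.775 to -0.222). With at least 1000 genes and at most 5% mitochondrial UMIs per cell the difference was -0.693 points (-1.46 to 0.0859), an interval that includes 0, and with 10 axoneme genes outside the rule choosing the cells, a larger group of 170 WT (2.51%) and 62 cKO cells (1.02%), it was -1.49 (-1.95 to -1.04). Just outside the threshold, 14 WT and 11 cKO cells had a sum of 2. Just inside it, 9 and 7 cells had a sum of 3. A sum of 20 or more was reached by 35 WT (0.517% of kept cells) and 12 cKO cells (0.197%), a difference of -0.320 points (-0.538 to -0.113), and a sum of 80 or more by 14 and 2. Before the neuronal, endothelial and microglial limits were applied 69 WT and 24 cKO cells reached a sum of 3, so these limits removed 10 and 1. Median depth was alike in both sets, with a median of 13467 UMIs per Foxj1 cell in WT (869 to 62954) and 13417 in cKO (6403 to 27799), each above the medians of all kept cells, 6653 and 7629. In WT, 4 Foxj1 cells lay below 3000 UMIs and 2 above 50000, and none did in cKO. Genes of the choroid plexus, another tissue of the ventricles, moved with this share, at 60.4 CPM (UMIs per 1e+06 UMIs of the cells summed) in the other kept cells of WT and 2.37 CPM in those of cKO, a log2 ratio of -4.67 (-4.93 to -4.42). Their part in the lower cKO share was not tested.

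**Figure D1:**
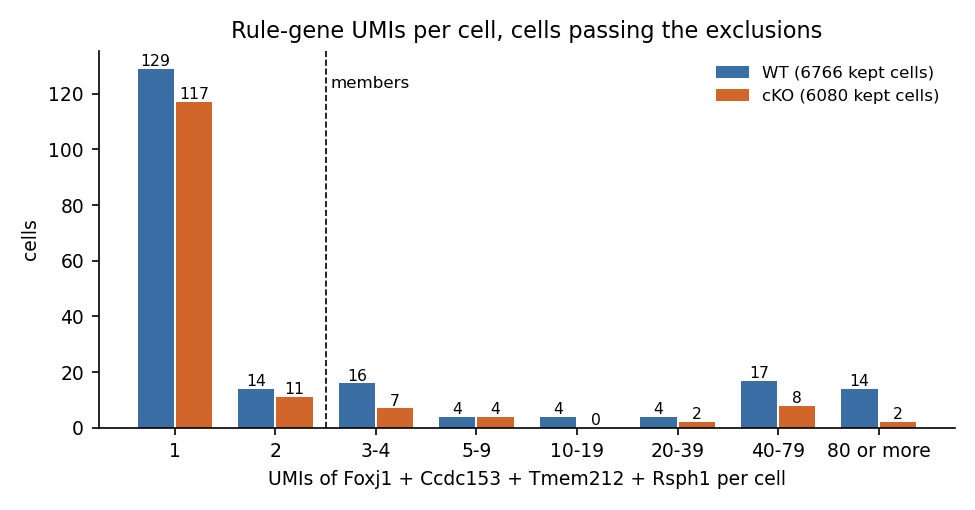
Number of cells (vertical axis) by the UMIs of Foxj1, Ccdc153, Tmem212 and Rsph1 summed per cell (horizontal axis, in bins), for WT (6766 kept cells) and cKO (6080 kept cells). The dashed line marks the threshold: the bins with 40 to 79 UMIs hold 17 WT and 8 cKO cells, and those with 80 or more hold 14 and 2.

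The 4 rule genes were spread unequally over these cells. Foxj1 had 954 UMIs in 57 of 59 WT cells and 421 in 22 of 23 cKO cells, and Rsph1, a radial spoke head protein, had 1135 in 53 and 264 in 23. Ccdc153 and Tmem212 were carried by fewer cells. Ccdc153 had 325 UMIs in 27 WT cells and 32 in 5 cKO cells, and Tmem212 had 229 in 21 and 29 in 3. Between 72.2% and 100% of the UMIs of each rule gene in kept cells lay in the Foxj1 cells. In the cells with C1q transcripts, which should lack these genes, Foxj1 was found in 1 of 32 cKO cells, with a median depth of 12470 UMIs, and none of the other rule genes was found. In the 59 WT cells of that kind, at a median of 10498 UMIs, none was found, which allows a share of up to 5.08% when a count of 0 is read as fewer than 3 counts, the floor used for every 0 given as a limit here.

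Genes of the motile axoneme that the rule did not use were far higher in these cells than elsewhere. The 92 axoneme genes summed to 15190 counts per 1e+06 (CPM, UMIs of a gene per 1e+06 UMIs of the cells summed) in WT Foxj1 cells and to 8784 in cKO Foxj1 cells, against 406 and 333 CPM in all other kept cells. On the log2 scale the Foxj1 cells lay 5.22 (5.19 to 5.26) above the other cells in WT and 4.72 (4.67 to 4.78) in cKO. Under the stricter filter on cells these were 4.54 (4.49 to 4.60) and 3.07 (2.94 to 3.21), and with the 10 axoneme genes choosing the cells 3.93 and 3.77. Of the 76 axoneme genes with at least 40 UMIs in Foxj1 cells, 76 were at least 2-fold higher there in both libraries, where 26% of all 5480 genes with that many UMIs were, and none was at least 2-fold lower in both, where 4.34% were. Since these genes are read from the same cells as the rule genes, this describes the group and does not test it. The minimum of 40 UMIs was also set in the Foxj1 cells, which favours an excess there for genes that are low elsewhere. The Foxj1 cells, 0.872% of kept WT cells, held 36.2% of the axoneme UMIs of that library, and in cKO they held 14.3%.

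The genes that separated these cells most from the others included several outside the axoneme lists. The 12 genes with the largest excess in the library where it was smaller were Zfp474, 3300002A11Rik, Tctex1d4, Mdh1b, Deup1 (listed as Ccdc67), Dlx4, Acot5, Dmkn, Dnah12, Odf3b, Tomm20l and Cfap161, with log2 excesses of 8.15 or more in both libraries. Deup1, the deuterosome scaffold, had 478 CPM in WT and 277 in cKO Foxj1 cells, against 1.38 and 0.0885 in the other cells. Dmkn, which encodes the secreted protein dermokine, stood at 316 and 319 CPM, against 1.03 and 0.265. Dlx4, a distal-less homeobox gene, was at 50.5 and 56.0 CPM, and 43 of its 44 WT and 17 of its 20 cKO UMIs came from the cells with the highest axoneme levels. Dlx4 overlaps the antisense gene Dlx4os, and the strand used in counting is not given in the sources used here, so the pair cannot be told apart. One WT cell gave 56 of the 137 UMIs of 3300002A11Rik.

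Genes of microglia, endothelium and projection neurons were low in the Foxj1 cells, which the rule's limits on genes of these cells largely fix. The 8 microglial genes summed to 2.29 and 2.80 CPM, in 2 WT and 1 cKO cell, against 264 and 175 in the other cells. Endothelial genes summed to 44.7 and 36.4 CPM (583 and 248 in the others), and projection neuron genes to 258 and 327 CPM (5038 and 4992). Among lists that the rule did not limit, haemoglobin and other blood genes summed to 12.6 and 5.60 CPM (1269 and 532 in the others) and interneuron genes to 111 and 104 (589 and 517). Fibroblast genes were not lower, at 24.1 and 28.0 CPM against 21.9 and 9.20, and mural genes stood at 99.8 and 95.1 CPM against 250 and 91.0. The 8 choroid plexus genes summed to 63.1 CPM in WT, with 55 UMIs in 23 cells, and to 14 CPM in cKO, with 5 UMIs in 2 cells, against 60.4 and 2.37 in the other cells. Ttr, the transthyretin of choroid plexus epithelium, which is multiciliated as well, had 0 UMIs in both sets, which by the floor of 3 counts allows 3.44 CPM in WT and 8.39 CPM in cKO. Kl and Kcne2 of the same list were also at 0, whereas the folate receptor gene Folr1 had 37 UMIs in 13 WT cells and 3 in 2 cKO cells, and Otx2 had 15 and 2. S100b, a marker of the mature ependyma, had 9 UMIs in 6 WT cells and 0 in cKO. Interneuron genes reached 10 UMIs in 2 WT and 2 cKO cells and oligodendrocyte precursor genes in 1 and 1, while the neuronal tubulin Tubb3 did so in 3 and 1. The cells are marked by genes of motile cilia, which other ciliated cells share, and S100b gives little to place them in the mature ependyma.

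Set beside cells with at least 3 UMIs of Aqp4 and Aldh1l1 and at most 1 of Mki67 and Top2a, without any rule gene (353 in WT, 196 in cKO), the Foxj1 cells had less of the radial glia and astroglial genes and more of some others. Fabp7, a fatty acid binding protein of radial glia, was at 4347 and 3456 CPM in Foxj1 cells, against 21159 and 14125 in these astroglial cells. The glutamate transporter Slc1a3 was at 684 and 644 CPM, against 2733 and 2602. The transcription factor Sox9 was also lower, at 402 and 434 CPM against 524 and 599. Higher in the Foxj1 cells were the chaperone clusterin (Clu), at 888 and 1399 CPM against 566 and 772 when summed over all Foxj1 cells, and the secreted protein Mia, at 64.2 and 44.8 against 3.88 and 2.20. Myb, a transcription factor of multiciliated precursors, stood at 229 and 173 CPM in Foxj1 cells and had no UMI in the astroglial cells. The excess of Clu came from the cells with less of the axoneme, since in those with an axoneme level of at least 15000 CPM it was at 480 and 673 CPM, below the astroglial cells. The median axoneme level per cell was 428 and 440 CPM in the astroglial cells, 16056 in WT Foxj1 cells and 6286 in cKO Foxj1 cells.

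The Foxj1 cells formed a graded series and not a uniform group. The axoneme level of a single cell ran from 679 to 31175 CPM in WT and from 716 to 22004 CPM in cKO, so that 13 of the WT cells and 4 of the cKO cells held 50% of the axoneme UMIs of their set. For description the cells were divided at 5000 and 15000 CPM into a low, a middle and a high range, which are ranges of a score and not types. Of the cells, 4 lay within 20% of the first cut and 15 within 20% of the second. Many cells of the low range lay near the rule's threshold, with medians of 2 Foxj1 and 2 Rsph1 UMIs per cell over both libraries. Outside the Foxj1 cells, 7 WT and 2 cKO cells reached 5000 CPM and 4 and 0 reached 15000.

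Toward the high range the radial glia genes were lower, and several genes of cilia building were low in the low range and higher from the middle range on. The levels that follow are CPM over both libraries in the low, the middle and the high range. Fabp7 was at 8642, 5026 and 1375, Slc1a3 at 1363, 784 and 279, and the Notch effector Hes5 at 406, 130 and 32.4. The pair of WT cells above 50000 UMIs gave 1669 of the 3437 WT radial glia UMIs of the middle range and 1102 of the 1904 of the high range. Doubtful cells were those above 50000 or below 3000 UMIs, with at least 10 UMIs of interneuron genes, oligodendrocyte precursor genes or Tubb3, or with at least 3 of Mki67. Without these 10 WT and 4 cKO cells, Fabp7 was at 10036, 3689 and 350 and Slc1a3 at 1595, 666 and 132. The BMP target Id3 was at 524, 662 and 13.8 in WT and at 310, 111 and 0 in cKO. Of the genes of commitment and centriole amplification, Ccno, Mcidas, Deup1 and Myb were near 0 in the low range, and over both libraries their levels in the high range were not above those in the middle one. Ccno was at 0, 369 and 198, Mcidas at 0, 103 and 61.3, Deup1 at 14.6, 578 and 510, and Myb at 7.31, 293 and 259. The share of WT cells differs between the ranges, and from the middle to the high range Ccno and Deup1 were lower in each library, whereas Myb stood at 264 and 276 in WT and at 338 and 149 in cKO, and Mcidas at 139 and 63.2 in WT and at 48.3 and 49.8 in cKO. Other genes of these steps had another order, Cdc20b at 0, 13.6 and 25.6, Foxn4 at 0, 24.4 and 44.3, Trp73 at 3.65, 43.4 and 54.5, and E2f5 at 98.7, 73.3 and 32.4. Cdc20b rests on 14 WT and 6 cKO UMIs and Foxn4 on 24 and 11, so the order of these genes is uncertain. Foxj1 itself, a rule gene, was at 300, 1547 and 1232 over both libraries. From the middle to the high range it stood at 1287 and 1244 in WT and at 1948 and 1159 in cKO. The axoneme genes, whose summed level defines the ranges, were highest in the high range, as with Dynlrb2, a dynein light chain, at 95, 754 and 1830. Of the rule genes, Ccdc153 stood at 0, 54.3 and 574 and Tmem212 at 0, 21.7 and 426, so both were concentrated at the upper end. The surface protein Cd24a of the mature ependyma was at 190, 404 and 1045. Sox9 stayed at 508, 337 and 412.

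**Figure D2:**
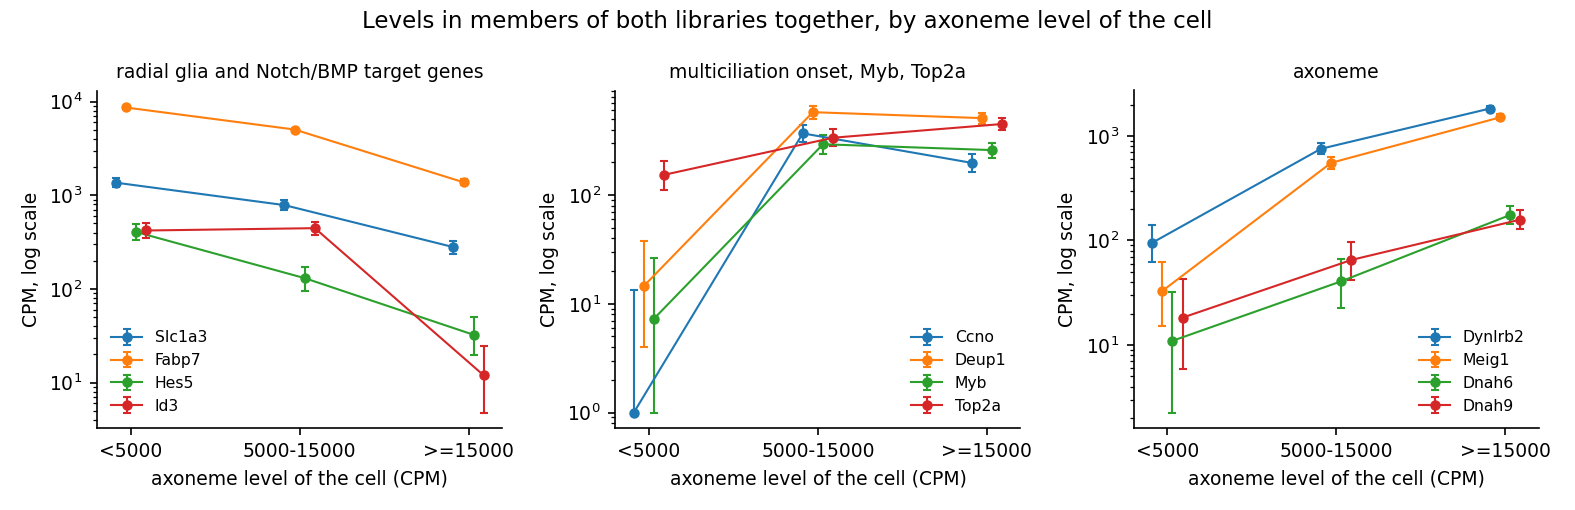
Level of single genes in CPM (vertical axis, log scale, values under 1 drawn at 1) over both libraries in Foxj1 cells with an axoneme level under 5000 CPM, from 5000 to 15000, and of 15000 CPM or more (horizontal axis), with bars for the exact 95% Poisson interval of the summed count. Fabp7 is at 8642, 5026 and 1375 CPM, Ccno is at 0, 369 and 198, and Dynlrb2 at 95, 754 and 1830 CPM.

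**Figure D3:**
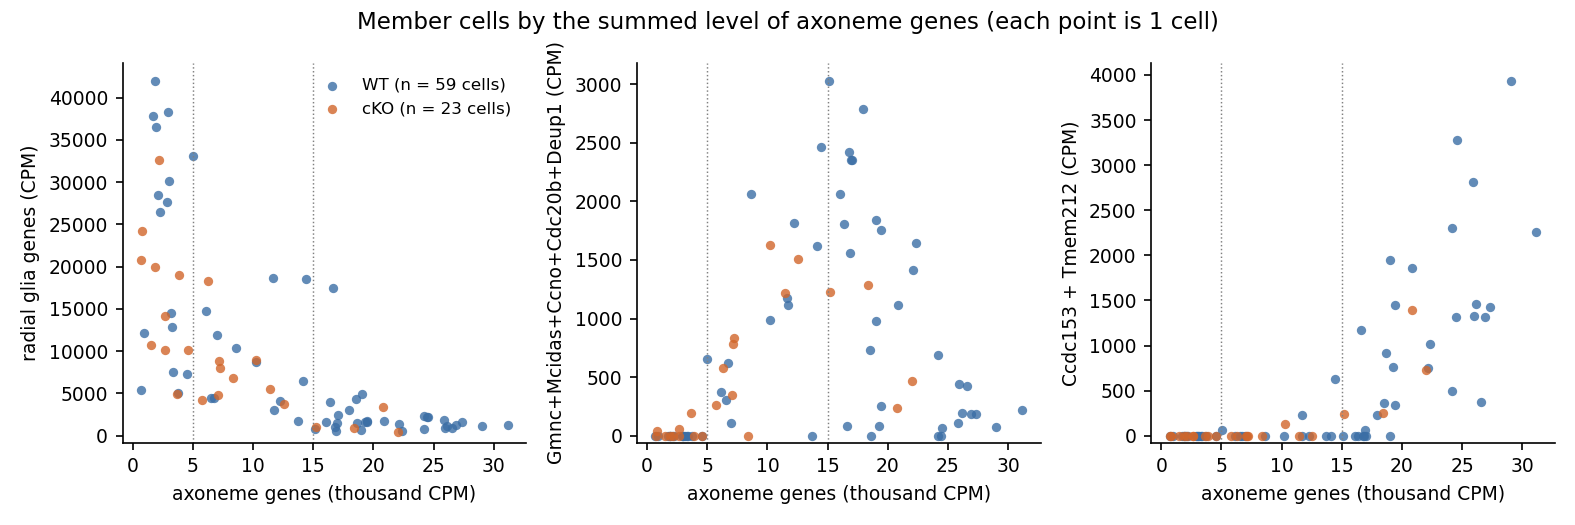
Each point is 1 Foxj1 cell (59 WT, 23 cKO). The horizontal axis is its axoneme level in CPM divided by 1000, and the vertical axes are the CPM of the radial glia genes, of the 5 onset genes (Gmnc, Mcidas, Ccno, Cdc20b, Deup1) and of Ccdc153 plus Tmem212. Cells with Ccdc153 or Tmem212 number 24 of 31 WT cells and 4 of 4 cKO cells in the high range and 0 of 15 and 0 of 10 in the low range.

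Single cells followed the same order in each library. At least 1 UMI of the 5 onset genes Gmnc, Mcidas, Ccno, Cdc20b and Deup1 was present in 67.8% of the WT cells (40 of 59, 54.4 to 79.4) and in 65.2% of the cKO cells (15 of 23, 42.7 to 83.6). By range these were 0 of 15, 12 of 13 and 28 of 31 WT cells, and 3 of 10, 8 of 9 and 4 of 4 cKO cells. A UMI of Ccdc153 or Tmem212 was present in 0, 3 and 24 of the WT cells and in 0, 1 and 4 of the cKO cells. The high range therefore held most of the cells with these markers, while cells with onset genes were already common in the middle range. In all, Ccdc153 or Tmem212 was found in 27 of 59 cells of the WT library (45.8%, 32.7 to 59.2) and in 5 of 23 of the cKO library (21.7%, 7.46 to 43.7). Rule genes enter these shares, so the order of Ccdc153 and Tmem212 is a description. Cells are not replicates of a genotype.

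Top2a, the DNA topoisomerase of late S phase to mitosis, was present in the Foxj1 cells with little of the proliferation marker Mki67. In WT the Foxj1 cells held 320 Top2a UMIs for 11 Mki67 UMIs, 29.1 per Mki67 UMI (16 to 58.9), against 2.58 in other WT cells and 2.42 in cycling cells, which were chosen by at least 3 UMIs of Mki67 and Top2a together. In cKO the counts were 110 and 14, a ratio of 7.86 (4.49 to 14.8), against 2.10 and 2.34. A single cKO cell in the low range held 12 of the 14 Mki67 UMIs, and without it the cKO ratio was 91 to 2, or 45.5 (12.2 to 381). Without the WT cell with the most Mki67 UMIs, 3, the WT ratio was 298 to 8, or 37.2 (18.7 to 87.1). The mitotic kinase Cdk1 was at 200 and 299 CPM in the Foxj1 cells of WT and cKO, against 505 and 611 in cycling cells. Mki67 was at 12.6 and 39.2 CPM against 464 and 439, and cyclin A2 (Ccna2) at 8.03 and 44.8 CPM, of which the same cKO cell gave 16 of 16 UMIs. From the low to the high range of axoneme level Top2a stood at 153, 337 and 450 CPM, and 22 and 19 of its 42 UMIs in the low range came from the cells with the most Mki67 in WT and in cKO. When every cell was thinned to 2000 UMIs, Top2a was found in 17 of 56 WT (30.4%) and 4 of 23 cKO Foxj1 cells (17.4%), and Mki67 in 1 of 56 and 1 of 23. In microglial cells with C1q transcripts, some of which divide, the thinned Top2a shares were 14.8% and 19.4%, so the cKO share is not above that level. Unthinned, Top2a was found in 34 of 59 WT Foxj1 cells (57.6%).

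**Figure D4:**
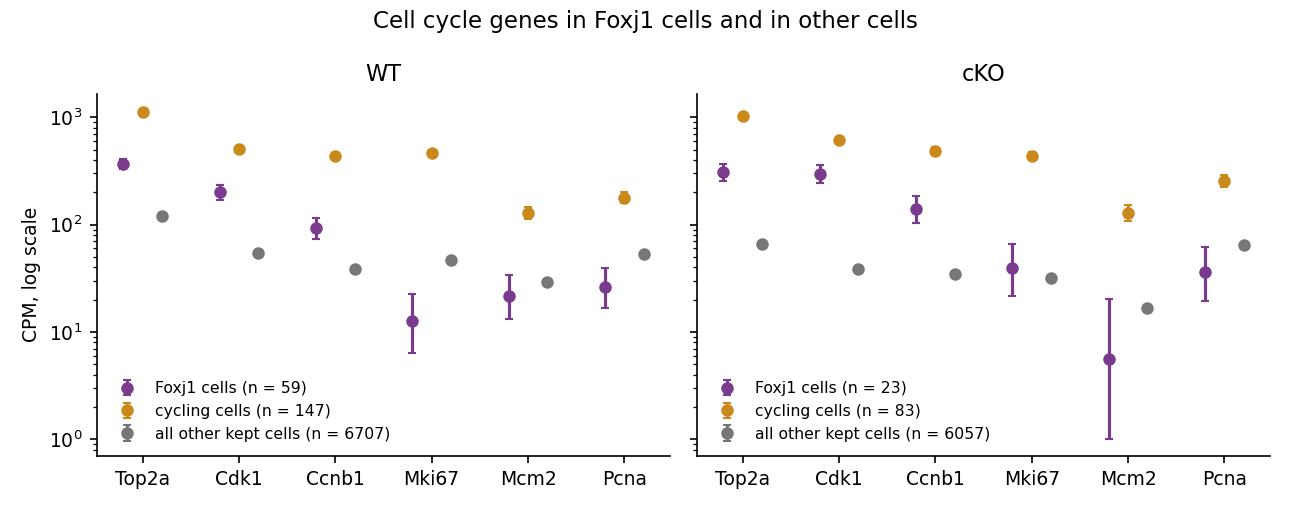
Level in CPM (vertical axis, log scale, values under 1 drawn at 1) of cell cycle genes (horizontal axis) in Foxj1 cells, cycling cells and all other kept cells of each library, with exact 95% Poisson intervals. Top2a stands at 367 (WT) and 308 CPM (cKO) in Foxj1 cells while Mki67 stands at 12.6 and 39.2 CPM.

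Between the libraries, the difference in the number of Foxj1 cells lay mainly in the high range. The low range held 15 WT and 10 cKO cells, 0.222% and 0.164% of kept cells, a difference of -0.0572 points (-0.219 to 0.106). The middle range held 13 and 9, 0.192% and 0.148%, a difference of -0.0441 points (-0.197 to 0.111). The high range held 31 and 4, 0.458% and 0.0658%, a difference of -0.392 points (-0.588 to -0.222), with a WT share 6.96-fold that of cKO. At a cut of 10000 CPM there were 38 and 7 cells, and at 20000 CPM 15 and 2. The intervals of the low and middle ranges include 0, and with so few cells they also include sizeable differences. The cells were selected on Rsph1, Ccdc153 and Tmem212, whose level tracks the axoneme, so counts in the high range are not independent of the rule.

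Summed over the cells, the axoneme genes were lower in the cKO set as a whole. The log2 ratio of cKO to WT of the summed axoneme UMIs was -0.79 (-0.85 to -0.73), where the other kept cells had -0.29. Under the stricter filter it was -1.51 (-1.65 to -1.37), from 24 WT and 10 cKO cells. Over single genes, 72 of the 76 tested were lower in cKO and 35 at least 2-fold lower, with none at least 2-fold higher, and the median log2 ratio was -0.95. Of all 5480 genes, 49.6% were lower in cKO, 8.72% at least 2-fold lower and 3.78% at least 2-fold higher, with a median of 0.01. In the cells outside the Foxj1 set the median over the same axoneme genes was -1.08, at levels that were a small fraction of those in Foxj1 cells. Within the ranges the axoneme genes had log2 ratios of -0.07 (-0.30 to 0.16), -0.06 (-0.16 to 0.04) and -0.15 (-0.23 to -0.08) from low to high, and 0.12 (-0.14 to 0.39), -0.32 (-0.44 to -0.20) and -0.22 (-0.29 to -0.14) without the doubtful cells. The ranges were set on this same level, which limits how far it can differ within each. The level was still lower in cKO in the high range and, without the doubtful cells, in the middle range too.

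**Figure D5:**
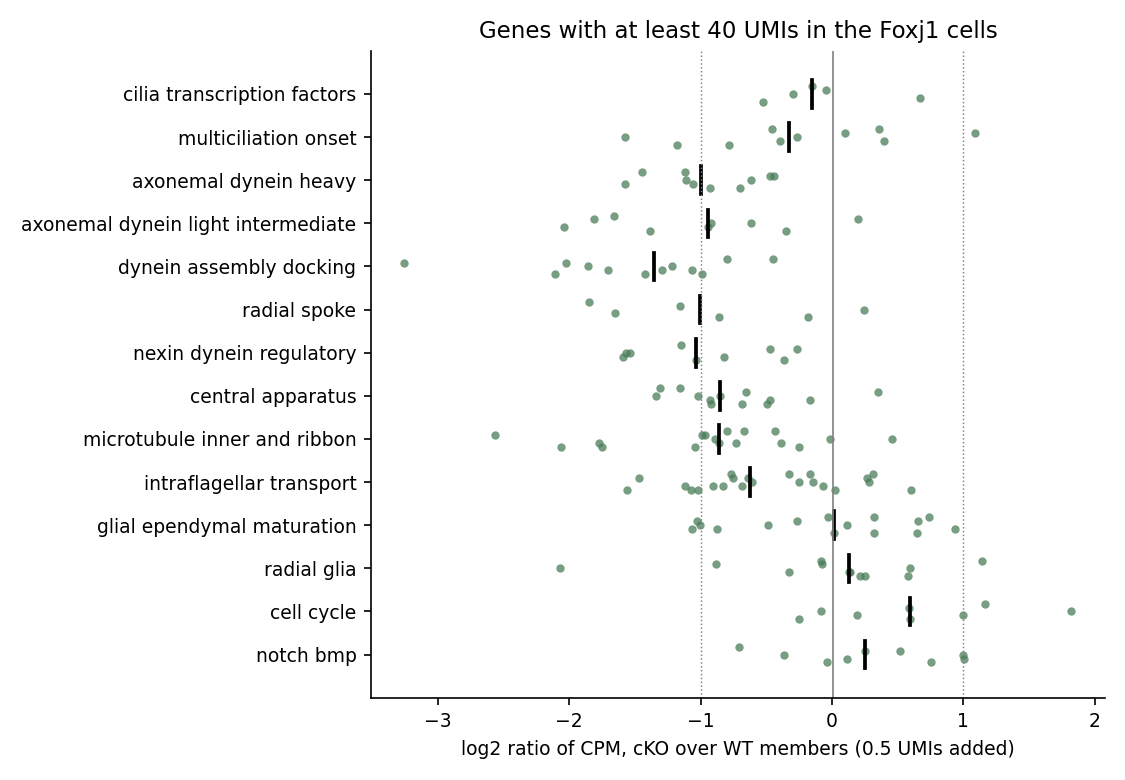
Each point is 1 gene with at least 40 UMIs in Foxj1 cells, placed by the log2 ratio of its CPM in cKO over WT Foxj1 cells (horizontal axis, 0.5 UMIs added), with genes grouped by list (vertical axis) and the list's median marked. Dynein assembly and docking genes have a median of -1.36 and all 12 lie below 0, while the radial glia genes have a median of 0.13.

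By part of the axoneme, the proteins that assemble and dock dynein arms had the lowest ratios. All 12 tested genes of dynein assembly and docking were lower in cKO, 9 of them at least 2-fold, against 49.6% and 8.72% of all genes. The list summed to 1358 CPM in WT and 515 in cKO, a log2 ratio of -1.40 (-1.63 to -1.17). The list was lower in cKO outside the Foxj1 cells too, at 38.1 and 23.5 CPM, a log2 ratio of -0.70 (-0.80 to -0.60). Dnaaf1, a cytoplasmic assembly factor for dynein arms, had 81 UMIs in 31 WT cells (92.9 CPM) and 3 UMIs in 3 cKO cells (8.39 CPM), a log2 ratio of -3.26 (-5.78 to -1.87). In the other kept cells it had 25 and 2 UMIs, a ratio of -3.33 (-6.74 to -1.62). Those cells still hold the 10 WT and 1 cKO cells that the rule's limits removed. Among the other kept cells 4 WT and 0 cKO cells had an axoneme level of at least 15000 CPM. Whether the difference extends beyond ciliated cells was not tested. Zmynd10, which acts in the same step, was at 442 CPM in 39 cells and 179 CPM in 14, a log2 ratio of -1.29 (-1.71 to -0.92). Lrrc6 had 74 and 7 UMIs, Ttc25 of the docking machinery 89 and 8, and Ccdc114 of the docking complex 59 and 7. Each of these last genes was found in at least 30 WT cells and in at most 7 cKO cells. Dnaaf1 overlaps Taf1c on the other strand.

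The same list was lower in cKO also within ranges of axoneme level, though not in every range. The axoneme level as a whole was not fully alike within these ranges. Its log2 ratios were -0.73 (-1.65 to 0.14) in the low, -0.71 (-1.11 to -0.32) in the middle and -0.76 (-1.09 to -0.44) in the high range. Without the doubtful cells the ratios were -0.05 (-1.0 to 0.86), -1.17 (-1.68 to -0.68) and -0.83 (-1.16 to -0.51). The high range of cKO rests on 4 cells. The ratio of -0.70 in the other kept cells lies within the intervals of all 3 ranges over all Foxj1 cells.

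The other parts of the axoneme also summed to less in cKO. Beside the counts that follow, 49.6% of all 5480 genes were lower in cKO and 8.72% at least 2-fold lower. The dynein heavy chains, the motors of the arms, summed to 899 CPM in WT and 490 in cKO, and all 10 tested were lower, 5 of them at least 2-fold, with a median log2 ratio of -1.0. Their sum had a log2 ratio of -0.88 (-1.12 to -0.64), beside -1.28 (-1.45 to -1.11) in the other kept cells. The light and intermediate chains summed to 2548 and 1539, with 8 of 9 lower. In the nexin-dynein regulatory complex, which links neighbouring doublets, all 9 tested genes were lower, and the list summed to 1672 and 909 CPM. In the central apparatus 12 of 13 were lower (1859 and 1156 CPM), and among the proteins inside the microtubule doublets 16 of 17 (5538 and 3187 CPM). Within the last list, Fam183b was at 729 CPM in 49 WT cells and 372 in 15 cKO cells, a log2 ratio of -0.96. Mns1 was at 391 CPM in 51 WT cells and 115 in 18 cKO cells, a log2 ratio of -1.75. The radial spokes differed less in sum, at 1316 and 988 CPM, with 5 of 6 genes lower. There the spoke head gene Rsph4a had 136 and 15 UMIs, a log2 ratio of -1.85 (-2.77 to -1.12), beside Nme5 of the spoke at 359 and 425 CPM, 0.25 (-0.04 to 0.53). In the other kept cells the summed log2 ratios were -0.01 for the light and intermediate chains, -0.68 for the nexin complex, -0.57 for the central apparatus, -0.13 for the proteins inside the doublets and -0.15 for the radial spokes, against -0.73, -0.88, -0.69, -0.80 and -0.41 in the Foxj1 cells. Spag6 and Spag6l, and Dnah7a, Dnah7b and Dnah7c, are near-identical copies among which reads may be split, and their single values are uncertain.

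Dnah6, an axonemal dynein heavy chain, lay mostly in Foxj1 cells and there in the high range. Foxj1 cells held 102 of its 139 UMIs in kept WT cells (73.4%, 65.2 to 80.5) and 19 of 30 in cKO (63.3%, 43.9 to 80.1). Over all kept cells its log2 ratio of cKO to WT was -2.18 (-2.80 to -1.60), whereas within Foxj1 cells it was -1.14 (-1.93 to -0.42) and within the other cells -1.73 (-2.85 to -0.73). By range it stood at 21.2, 62.6 and 168 CPM in WT, from 3, 14 and 85 UMIs, and at 0, 6.91 and 224 CPM in cKO, from 0, 1 and 18 UMIs. The 4 cKO cells of the high range thus held 18 of the 19 cKO UMIs. Dnah6 overlaps Gm20560 on the other strand.

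The genes of the first steps differed less between the libraries, and not in 1 direction. Of the 10 onset and centriole genes tested, 6 were lower and 4 higher in cKO, where 49.6% of all 5480 genes were lower. The list had a median log2 ratio of -0.33 and summed to 1441 and 1158 CPM. Mcidas was at 72.3 CPM in 21 of 59 WT cells and 30.8 in 6 of 23 cKO cells, a log2 ratio of -1.18 (-2.30 to -0.30), and Deup1 at 478 and 277 CPM, -0.78 (-1.12 to -0.47). Ccno pointed the other way, at 188 CPM in 27 cells and 246 in 10, 0.39 (0.00 to 0.77), as did Stil, needed for centriole duplication, at 43.6 and 92.3 CPM, 1.09 (0.36 to 1.79). Cep63 of the centrosome had 76 and 10 UMIs, -1.58 (-2.76 to -0.68). The RFX factors Rfx2 and Rfx3 stood at 59.7 and 47.6 CPM and at 102 and 97.9 CPM, both intervals including no difference. Among the intraflagellar transport genes 17 of 22 were lower, 5 of them at least 2-fold, where 8.72% of all 5480 genes were at least 2-fold lower. The list summed to 4228 and 3154 CPM, a log2 ratio of -0.42 (-0.52 to -0.33), beside -0.64 (-0.66 to -0.62) in the other kept cells. In that list Ift74 and Ift81, partners in the core complex, had log2 ratios of -1.47 and -1.56, and Ift46 had 0.60 (0.22 to 0.96).

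The radial glia genes summed to similar levels in both libraries over all Foxj1 cells, but to less in cKO within each range. The 12 radial glia genes summed to 9567 CPM in WT and 9797 in cKO, with 5 lower and 7 higher and a median log2 ratio of 0.13. In the other kept cells the summed list was lower in cKO, with a log2 ratio of -0.526 (-0.533 to -0.518). Hes1, a Notch effector, had 97 UMIs in 33 WT cells and 9 in 7 cKO cells, a log2 ratio of -2.07 (-3.32 to -1.16), and in the other cells its ratio was -1.18. Hopx, a marker of outer radial glia, was at 81.5 and 179 CPM, 1.14 (0.63 to 1.64), with 29 and 16 of its 64 cKO UMIs in 2 cells. Of 15 glial and ependymal maturation genes 7 were lower and 8 higher. Of all 5480 genes, 49.6% were lower in cKO and 3.78% at least 2-fold higher. The intermediate filament Vim was at 1833 CPM in WT and 3064 in cKO, 0.74 (0.63 to 0.85), and Clu at 888 and 1399, 0.66 (0.49 to 0.82). Neither difference kept its direction in every range of axoneme level. From the low to the high range Vim was at 2964, 2137 and 1384 CPM in WT and at 3915, 3364 and 1121 in cKO, and Clu at 1825, 1220 and 480 in WT and at 2147, 1119 and 673 in cKO. Cd24a was at 776 and 386 CPM, -1.0 (-1.28 to -0.74), in the direction of the axoneme genes with which it was highest. It was lower in cKO only in the high range, at 184, 371 and 1119 CPM in WT and at 197, 456 and 573 in cKO from low to high. Of 9 Notch and BMP pathway genes 3 were lower and 6 higher, with a median of 0.25, and Notch1 and the BMP antagonist Nog had ratios of 1.0 each. Of 8 cell cycle genes 2 were lower and 6 higher, with a median of 0.59, and the pair at least 2-fold higher, Ube2c and Cenpa, had 50 of 64 and 36 of 67 cKO UMIs in the single cell with the most Mki67. That cell held 224 of the 524 cKO UMIs of all listed cell cycle genes. Without the doubtful cells the list had log2 ratios of -0.94 (-2.22 to 0.21), -0.71 (-1.10 to -0.33) and 0.57 (0.30 to 0.82) from the low to the high range. From the low to the high range the radial glia genes had log2 ratios of -0.29 (-0.37 to -0.21), -1.05 and -1.23. Without the doubtful cells these were -0.35 (-0.44 to -0.26), -0.38 (-0.49 to -0.26) and -0.03 (-0.31 to 0.24).

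The dorsal patterning genes were higher in cKO both inside and outside the Foxj1 cells. All 5 tested had a higher level in cKO Foxj1 cells, with a median log2 ratio of 0.99, beside 0.81 in the other kept cells. Lhx2, a selector gene of the cortex, was at 250 CPM in 49 WT cells and 431 in 21 cKO cells, 0.79, and the ratio in the other cells was 0.81. The libraries thus differed in these genes as a whole. How much of that is the region dissected was not tested. Tmem173, the gene of STING, had 0 UMIs in the Foxj1 cells of both libraries, where the floor of 3 counts allows 3.44 CPM in WT and 8.39 in cKO, so its loss could not be seen in these cells. The kept cells of all kinds held 132 of its UMIs in WT and 18 in cKO.

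Among all 5480 genes, those with the largest differences between the libraries were named by the bound of the interval nearest to no difference, 10 in each direction. Lower in cKO were Htatip2, Acot6, Ccdc146, Dnaaf1, Eea1, Gm33050, Cc2d2a, 4932443I19Rik, Spag8 and 4930415O20Rik. All 10 had a ratio below 0 in the other kept cells too, from -3.33 to -0.41. Those cells still include the cells with rule genes that the rule's limits removed. Htatip2 had 68 UMIs in 10 WT cells, 20 and 16 of them in 2 cells, and 0 in cKO, with an interval of the log2 ratio that ends at -2.88. The acyl-CoA thioesterase gene Acot6 had 44 in 19 WT cells and 0 in cKO, with an interval that ends at -2.23. In WT these genes too lay in the high range, with 67 of 68 UMIs of Htatip2, 125 of 139 of Ccdc146, 73 of 81 of Dnaaf1 and 117 of 137 of Spag8. Higher in cKO were Gm8730, Per1, Eln, Hbp1, Hnrnpdl, F3, Ube2c, Dgat2, Gna13 and Cdt1. Several of these differed in the other kept cells too. Gm8730 and the clock gene Per1 had log2 ratios of 4.64 and 2.38 in Foxj1 cells and of 4.61 and 1.94 in the others, and Hnrnpdl and Gna13 had 1.53 and 1.57 in Foxj1 cells and 1.15 and 1.25 in the others. Eln, the gene of elastin, was at 95.2 CPM in 16 WT Foxj1 cells and 330 in 17 cKO cells, 1.79 (1.38 to 2.22), and the ratio in the other cells was 0.25. Its UMIs came mostly from the low and middle ranges, and the high range gave 8 of 83 in WT and 3 of 118 in cKO. Ube2c was higher in cKO by 1.82, but without the doubtful cells its ratio was -0.40.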

How the data were processed

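Single-cell RNA-seq of 1 WT and 1 cKO library was analysed. The authors deposited raw UMI counts per gene and barcode in matrices whose header names Cell Ranger 3.0.1, while the submitters' processing notes name STAR, Cell Ranger 2, Seurat and the build mm9. The annotation and the strand used in counting are not given in the sources used here. A deposited matrix of both libraries held 100% of the WT and 94.5% of the cKO UMIs and was used only as an alternative, and the deposited per-cell UMI and cell tables were not used.

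Barcodes with at least 500 genes and at most 10% mitochondrial UMIs were kept. Counts were summed over the chosen cells of each library and scaled to CPM. Levels carry exact Poisson intervals, shares Clopper-Pearson intervals, differences of shares Newcombe intervals and ratios exact binomial intervals, all at 95% and for counting error only. Log2 ratios of single genes had 0.5 UMIs added, while their intervals had none. No p-value was computed, since each group is 1 library. A gene was tested for a fold of 2 when it had at least 40 UMIs over both sets. The WT set held more UMIs, so a gene high in WT alone passed at a lower CPM than a gene high in cKO alone. Genes were named as the 12 with the largest excess over other cells and as members of the lists. A further 10 in each direction of cKO to WT were ranked by the interval bound nearest to no difference. Names outside these were chosen after their values were seen. The members and the gene lists were chosen with earlier results of these data known. Deup1, Drc3 and Heatr2 were matched by identifier to the listed symbols Ccdc67, Lrrc48 and Dnaaf5. All 145 genes looked up in the GENCODE annotation of GRCm38 were found, of which 47 overlap a gene on the other strand and 7 one on the same strand.

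Scrublet, run in scanpy 1.11.5, marked 131 of 6766 WT cells (1.94%), 1 of them a Foxj1 cell, and 0 of 6080 cKO cells, so it did not work there, and doublets were kept. Python 3.11.15, numpy 2.4.6, scipy 1.17.1, pandas 2.3.3, matplotlib 3.10.9 and, for TMM scaling alone, edgeR 4.0.16 in R 4.3.3 were used. The scripts were tested on simulated data.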

Additional observations from a re-analysis of the deposited data

How the results depend on the processing

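No paired analysis was possible because each genotype is 1 library. Other choices of cells and genes were tried, and those that require a marker sum of 20 or leave out doubtful cells, and the ranges of axoneme level, were chosen after seeing the data. The share of Foxj1 cells was lower in cKO under every choice of cells tried, though the interval included 0 under the stricter filter (-0.693 points, -1.46 to 0.0859), and the difference of -0.494 points became -0.778 when the rule was applied to cells thinned to 5000 UMIs and -1.49 when 10 axoneme genes outside the rule chose the cells, which took more cells, 2.51% of WT and 1.02% of cKO. The summed axoneme log2 ratio of cKO to WT, -0.79, was -1.51 with at least 1000 genes and at most 5% mitochondrial UMIs per cell (24 WT and 10 cKO cells), -0.87 at a marker sum of 2, -0.63 at 5, -0.52 at 20, -0.62 on thinned cells, -0.44 with the 10 axoneme genes, -0.73 without doubtful cells and -0.87 as a mean over cells. The excess of axoneme genes over other cells, 5.22 in WT, was 5.26 without a filter on cells, 4.54 under the stricter filter, 5.26 without Scrublet doublets, 4.98, 5.41 and 5.44 at marker sums of 2, 5 and 20, 5.48 on thinned cells and 3.93 with the 10 genes. In cKO the excess of 4.72 was 3.07 under the stricter filter, 4.40, 5.07 and 5.23 at sums of 2, 5 and 20, 5.01 on thinned cells, 3.77 with the 10 genes and 4.85 without doubtful cells. Genes at least 2-fold lower in cKO, 478 in number, were 299 under the stricter filter, 898 with the 10 genes, 905 at a minimum of 20 UMIs per gene and 2707 without a minimum. Those at least 2-fold higher, 207, were 136 under the stricter filter, 446 at 20 UMIs and 1918 without a minimum. Ube2c, higher in cKO by 1.82 on the log2 scale, was at -0.10 at a marker sum of 5, -0.057 on thinned cells, -0.54 with the 10 genes and -0.40 without doubtful cells. The cause of these shifts was not tested. TMM scaling, leaving out mitochondrial, ribosomal and haemoglobin genes, and the deposited combined matrix kept the summed axoneme log2 ratio within its counting error. Under these 3 choices the numbers of genes at least 2-fold lower, which carry no interval, were 470, 464 and 470. Those at least 2-fold higher were 215, 219 and 200. With 59 and 23 cells, genes of few UMIs and the 4 cKO cells of the high range set the limit.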
